A study of Mus musculus with 4 samples.

Results

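The histone cluster genes encode the linker histone H1 and the core histones H2A, H2B, H3 and H4. They comprise the 67 rows, of 31053 features counted, whose symbol starts with Hist1h, Hist2h, Hist3h or Hist4h. The set holds 6 H1, 18 H2A, 18 H2B, 12 H3 and 13 H4 genes, and 54 of the 67 lie on chromosome 13 in the mm10 (GRCm38) mouse genome. RNA was counted in single cells of the testis region that holds the rete testis (RT), the collecting duct system, and the tubules next to it. The tissue came from C57BL/6 pups at postnatal day 14 (P14), in 2 control and 2 *Sox17*-cKO libraries with 3 pups pooled in each. Control mice carry the genotype label SF1Cre, and *Sox17*-cKO mice SF1Cre:Sox17flox/flox. The study's methods instead describe the controls as Sox17flox/flox littermates, so whether the controls carried Cre is not settled. SF1 (Nr5a1) drives Cre in the somatic cells of the gonad, and germ cells are not among them.

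Most histone cluster genes are replication types, transcribed in S phase when newly copied DNA has to be packed. Their mRNA is unusual in that it normally ends in a conserved stem-loop instead of a poly(A) tail, and the stem-loop binding protein SLBP and the U7 snRNP direct that end. A few members are testis variants that replace replication types as germ cells enter meiosis. *Hist1h2aa* encodes TH2A, *Hist1h2ba* encodes TH2B and *Hist1h1t* encodes H1t. Because the 3′ kit primes on poly(A), the counts report polyadenylated histone RNA and say little about the stem-loop form.

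After cells with 1000 to 4500 detected genes were kept, 22567 cells of 46001 barcodes remained, between 5174 and 6135 per library, with 33649565 to 42011650 UMIs (unique transcript tags) each. Germ cells were grouped without any histone gene into undifferentiated spermatogonia-like (701 cells), differentiating spermatogonia-like (2901), preleptotene-like (1385), leptotene/zygotene-like (694) and pachytene-like (689) stages. The smallest of these groups in a single library was 45 undifferentiated spermatogonia-like cells in control 2. Spermatid markers summed to no more than 8.23 CPM (UMIs scaled to the summed UMIs of all genes) in any stage and library. *Sox17* itself stood at 356, 312, 45.5 and 34.6 CPM in RT-like cells of control 1, control 2, cKO 1 and cKO 2, but the deleted part of the gene relative to the 3′ tag is not given in the sources used here. Between 20 and 43 barcodes were shared by any pair of libraries. Clusters were named from marker lists. The pachytene-like cluster scored 1.05 for the pachytene markers and 1.18 for the leptotene/zygotene markers, and was named by a rule set after these scores were seen. Other stage names also rest on low scores. The preleptotene-like clusters scored 0.37 (755 cells) and 1.25 (630 cells) for their markers, and the differentiating spermatogonia-like clusters from 0.10 to 0.76. Levels below are CPM of all UMIs of one class of cells in one library, and a lower level per class can reflect less RNA per cell or fewer cells that make it. The count tables of the replicate 1 libraries carry Cell Ranger 6.0.2 and those of replicate 2 carry 6.1.2.

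The 3′ ends of 7 members were read first, because the stem-loop is the hallmark of a replication-type mRNA. It was searched in GENCODE vM21 transcripts as a 16-base core that starts with GG and ends with CC, with 6 paired positions, at least 5 of them complementary, around a loop of TTTN. Capitals mark that core, and the flanking bases are in lower case, 5′ to 3′ on the transcribed strand.
Hist1h1c: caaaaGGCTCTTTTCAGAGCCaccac
Hist1h1e: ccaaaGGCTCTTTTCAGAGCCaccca
Hist1h1t: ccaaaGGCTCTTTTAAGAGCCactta
Hist1h2ap: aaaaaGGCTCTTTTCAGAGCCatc
Hist1h2bm: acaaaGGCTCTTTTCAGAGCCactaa
Hist1h4c: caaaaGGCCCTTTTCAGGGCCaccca
Hist1h4d: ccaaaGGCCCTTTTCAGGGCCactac

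These cores lie, in GRCm38, at chr13:23739512-23739527 (plus strand, *Hist1h1c*), chr13:23621782-23621797 (minus, *Hist1h1e*), chr13:23696525-23696540 (plus, *Hist1h1t*), chr13:21833029-21833044 (minus, *Hist1h2ap*), chr13:21722506-21722521 (plus, *Hist1h2bm*), chr13:23698089-23698104 (minus, *Hist1h4c*) and chr13:23581950-23581965 (plus, *Hist1h4d*), each in the 3′ UTR of a gene with 1 exon. *Hist1h1c*, *Hist1h1e*, *Hist1h2ap* and *Hist1h2bm* share one core, and the H4 genes share another. How far the annotated transcript runs past the loop differed widely. It ended 3 bases after the core in *Hist1h2ap* and 46 bases after it in *Hist1h2bm*. In *Hist1h1t* a further 185 bases follow, in *Hist1h4c* 454, in *Hist1h4d* 770, in *Hist1h1c* 840 and in *Hist1h1e* 1153. *Hist1h1c* and *Hist1h1t* also hold a poly(A) signal (AATAAA or ATTAAA) in their last 40 bases.

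Polyadenylated RNA was counted for members with every kind of annotated end. Of the 67 genes, 31 held the stem-loop alone, 13 the stem-loop and a poly(A) signal, 4 a poly(A) signal alone, and 19 neither. Those groups carried 45.1%, 13.5%, 0.959% and 40.5% of the 193757 UMIs of the members. In 13 of the 19 genes with neither feature, *Hist1h2aa* and *Hist1h2ba* among them, the annotated transcript stops at the stop codon, so their 3′ ends could not be read. The 22 genes whose transcript runs 100 or more bases past the loop carried 58604 UMIs and the 22 with a shorter run 54876. *Hist1h2ap*, with the shortest run among those printed, alone gave 32261.

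The UMIs were concentrated in few genes. *Hist1h2aa*, *Hist1h2ap*, *Hist1h1a* and *Hist1h4d* held 55.2% of the members' UMIs, with 35349, 32261, 21445 and 17862 respectively. The testis variants held 23.2%. At the other end, 8 members had 50 or fewer UMIs and *Hist1h2bq* had 0 in all retained cells, while each of the other 66 was seen in every library. Near-identical members lose reads that map to several copies, so low counts of single H2A, H2B, H3 and H4 genes are uncertain and counts are not compared between genes as transcript levels.

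*Hist1h2aa* and *Hist1h2ba* sit head to head on chromosome 13 and share the sequence between them. Because the RNA of both rose up to preleptotene-like cells and fell at the next step, as described below, the promoter window of *Hist1h2aa* (RefSeq H2ac1, GRCm38.p6, chr13:23934187-23934486, plus strand, 250 bases before to 50 after the start) is shown. It overlaps most of the *Hist1h2ba* window, chr13:23934107-23934406 on the minus strand. Capitals mark matches, on either strand, to the octamer ATTTGCAT, to CCAAT, to TATAAA and to AAACACA, a motif known from H1 promoters.
Hist1h2aa promoter: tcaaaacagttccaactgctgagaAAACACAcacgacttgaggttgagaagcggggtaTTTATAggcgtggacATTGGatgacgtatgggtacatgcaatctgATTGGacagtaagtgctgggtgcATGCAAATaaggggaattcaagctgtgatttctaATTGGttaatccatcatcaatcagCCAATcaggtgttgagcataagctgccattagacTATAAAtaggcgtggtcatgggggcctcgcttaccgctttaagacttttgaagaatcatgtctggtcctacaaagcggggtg

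The window holds 1 octamer, 124 bases before the start of *Hist1h2aa*, 4 CCAAT matches, 2 TATAAA matches and 1 AAACACA match. Promoter windows were found for 62 members. The octamer was present in 14 of them (22.6%), against 1.74% of 32851 promoter windows of all genes, and those 14 were 7 of 17 H2A and 7 of 17 H2B genes, many of which face each other and share their window. CCAAT was present in 85.5% against 37.4%: it was in every H1, H2A, H2B and H3 window but in 3 of 12 H4 windows (25%). TATAAA was present in 56.5% against 13.6%. AAACACA was present in 5 of 6 H1 windows (83.3%), against 7.18% of all windows. A match describes letters and is not a bound site.

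Histone RNA rose steeply as spermatogonia differentiated, peaked in preleptotene-like cells, which undergo the premeiotic S phase, and fell through prophase. Summed over the members it stood at 775, 489, 664 and 417 CPM in undifferentiated spermatogonia-like cells of control 1, control 2, cKO 1 and cKO 2. In differentiating spermatogonia-like cells the same sum was 3097, 2646, 2987 and 1382 CPM, and in preleptotene-like cells 4845, 4079, 4955 and 3228 CPM. Each library was higher at each of these steps. The 3 testis variants summed to 589, 383, 742 and 277 CPM in differentiating and 1957, 1272, 2314 and 1202 CPM in preleptotene-like cells. The other 64 members, the replication types, went from 2508, 2263, 2245 and 1104 CPM to 2888, 2806, 2641 and 2025 CPM. Their rise was smaller in each library. Over all members the sum then came to 2224, 1892, 2230 and 2043 CPM in leptotene/zygotene-like cells. In pachytene-like cells it was 1459, 1231, 1524 and 1018 CPM, with no overlap between consecutive stages. Of the 49 members with at least 50 UMIs in germ-like cells, 5 had their highest mean level in undifferentiated spermatogonia-like cells, 13 in differentiating spermatogonia-like, 21 in preleptotene-like, 5 in leptotene/zygotene-like and 5 in pachytene-like cells. An S-phase gene list without histones, used below, did not peak in preleptotene-like cells. Its mean sum was 5157 CPM in differentiating, 4970 CPM in preleptotene-like and 5153 CPM in leptotene/zygotene-like cells.

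The families did not share one course. Mean summed levels over the 4 libraries peaked in preleptotene-like cells for H1 (1080 CPM), H2A (1933 CPM) and H2B (656 CPM), in differentiating spermatogonia-like cells for H3 (66.1 CPM) and in leptotene/zygotene-like cells for H4 (691 CPM). The H2A peak was that of *Hist1h2aa*: without it the H2A sum was 1110, 1262, 773 and 243 CPM in differentiating and 685, 867, 483 and 242 CPM in preleptotene-like cells, lower at preleptotene in each library though barely so in cKO 2. Without *Hist1h2ba* the H2B sum, and without *Hist1h1t* the H1 sum, still had its highest mean in preleptotene-like cells (359.5 and 1054 CPM). The H3 sum in differentiating cells was 80.1, 39.8, 74.0 and 70.4 CPM, lowest in control 2. The H4 sum rose from 409, 756, 356 and 790 CPM in preleptotene-like to 429, 870, 471 and 994 CPM in leptotene/zygotene-like cells, higher in each library. *Hist1h4d* held 17862 of the 32417 H4 UMIs, and it and *Hist1h4c* were the 2 of 6 tested H4 genes called higher at that step, where 34.3% of all genes were called higher and the H4 median was -0.007. Of 11 H4 genes, 6 had their highest mean level in preleptotene-like cells and 2 in leptotene/zygotene-like cells, and the direction of both reversed at another clustering resolution, as given below.

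**Figure D1:**
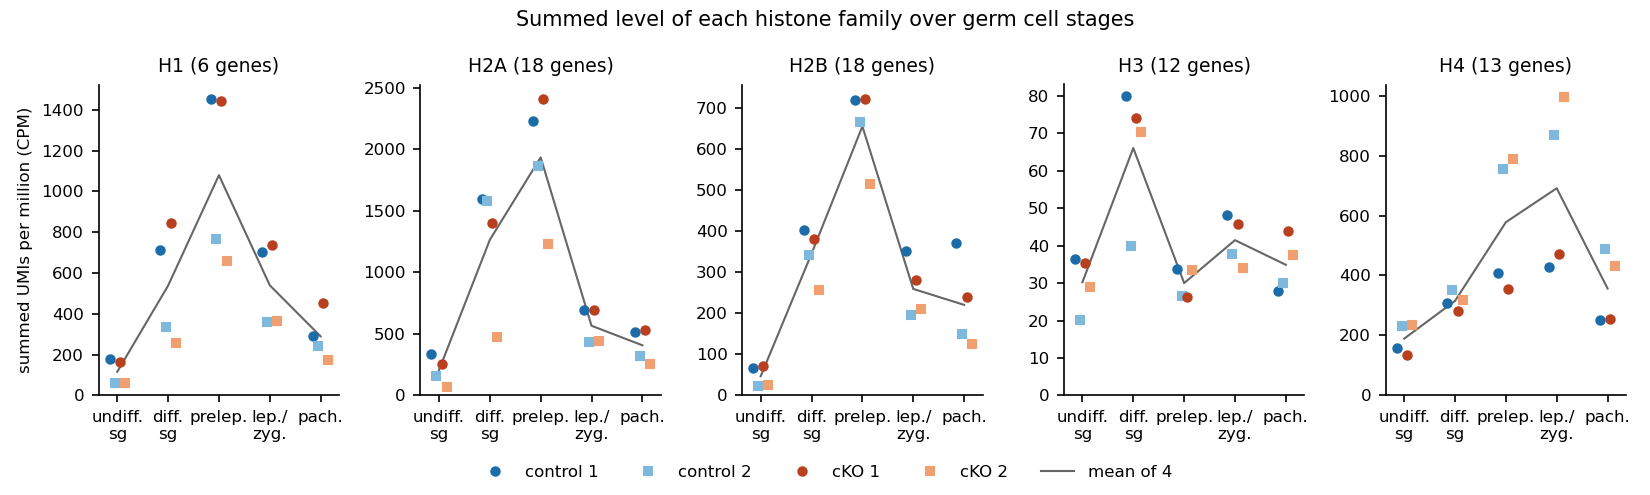
Summed level of each histone family (CPM, linear axis from 0) in 5 germ cell stages, with 1 point per library and a grey line through the mean of the 4 libraries. H1, H2A and H2B peak in preleptotene-like cells (means of 1080, 1933 and 656 CPM), H3 a stage earlier at 66.1 CPM and H4 a stage later at 691 CPM.

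Stage contrasts were tested with edgeR's quasi-likelihood test on UMI sums, with the library as a block and Benjamini-Hochberg adjustment over all genes tested. Between differentiating and undifferentiated spermatogonia-like cells 38 members passed the filter on low counts, and 28 rose and 5 fell. Of all genes, 65.7% were called, 33% higher and 32.8% lower, and the median log2 fold change was 1.83 over those members and 0.02 over all genes. From differentiating spermatogonia-like to preleptotene-like cells 17 of 37 rose and 7 fell, where 66.8% of genes were called (33% higher, 33.9% lower), with medians of 0.42 and -0.02. Into leptotene/zygotene-like cells 6 of 28 rose and 14 fell, where 70% of genes were called (34.3% higher, 35.7% lower), with medians of -0.54 and -0.01. Into pachytene-like cells 1 of 20 rose and 16 fell, where 63.3% of genes were called (32.3% higher, 30.9% lower), with medians of -1.03 and 0.04.

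The testis variants *Hist1h2aa* and *Hist1h2ba* were low in undifferentiated spermatogonia-like cells and rose at each of the next 2 stages. *Hist1h2aa* stood at 36.7, 7.35, 47.9 and 3.51 CPM in undifferentiated, 484, 316, 631 and 234 CPM in differentiating and 1542, 998, 1925 and 989 CPM in preleptotene-like cells of control 1, control 2, cKO 1 and cKO 2. Its log2 fold change was 3.81 ± 0.14 (SE, adjusted p = 7.63e-17) at the first step and 1.77 ± 0.055 (adjusted p = 1.74e-20) at the second. Levels then dropped to 551, 296, 575 and 364 CPM in leptotene/zygotene-like cells and 421, 249, 441 and 222 CPM in pachytene-like cells. Both declines passed the test, with log2 fold changes of -1.54 and -0.46, though the second was -0.19 and not called at a clustering resolution of 0.8.

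*Hist1h2ba* ran in parallel up to preleptotene and parted from *Hist1h2aa* in pachytene-like cells. It reached 94.95, 62.5, 101.3 and 39.1 CPM in differentiating and 386, 254, 356 and 191 CPM in preleptotene-like cells, with log2 fold changes of 3.80 ± 0.19 (adjusted p = 2e-14) and 2.03 ± 0.067 (adjusted p = 4.59e-20). It fell to 220, 101.2, 140 and 92.3 CPM in leptotene/zygotene-like cells (log2 fold change -1.07). In pachytene-like cells it was at 308, 119, 186 and 95.7 CPM, higher in 4 of 4 libraries and the only member called higher there, with a log2 fold change of 0.30 ± 0.10 (adjusted p = 0.0167). Without integration of the libraries that value was -0.07 and not called, and the call was also lost with DESeq2 (0.26), without the filter on low counts (0.22), without control replicate 1 (0.21) and without cKO replicate 1 (0.27).

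*Hist1h1t*, the linker histone known from pachytene spermatocytes, rose at the same steps but had its highest mean level later. It was at 3.73, 1.84, 4.84 and 0 CPM in undifferentiated, 9.90, 4.69, 10.2 and 3.99 CPM in differentiating and 29.6, 21.2, 32.8 and 21.6 CPM in preleptotene-like cells. Both steps passed the test, with log2 fold changes of 1.27 ± 0.32 (adjusted p = 0.00108) and 1.88 ± 0.17 (adjusted p = 6.55e-11). After thinning to 2000 UMIs per cell, *Hist1h1t* was seen in 1.04%, 0%, 0.562% and 0% of undifferentiated cells. The share was 2.27%, 1.19%, 1.89% and 0.832% in differentiating and 0.811%, 0.23%, 2.1% and 0.322% in Sertoli-like cells. The first step thus starts near that Sertoli-like level, and cKO 1 does not exceed it in differentiating cells. The step into leptotene/zygotene-like cells, at 55.0, 19.6, 53.3 and 34.1 CPM, gave a log2 fold change of 0.65 ± 0.16 (adjusted p = 0.000526), although control 2 was slightly lower there. Pachytene-like cells held 58.2, 23.2, 63.8 and 25.1 CPM, and the change of 0.05 ± 0.16 did not pass the test. It was called at a clustering resolution of 0.8 (0.59, adjusted p = 0.024) and with no upper limit on genes per cell (0.56, adjusted p = 0.0129), whereas the step before it was 0.12 and not called at that resolution. In both of the last stages the replicate 1 libraries lay above the replicate 2 libraries. Sertoli cell markers summed to 999, 176, 1059 and 167 CPM in pachytene-like cells, against a mean of 9251 CPM in Sertoli-like cells, and their part in this difference was not tested.

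**Figure D2:**
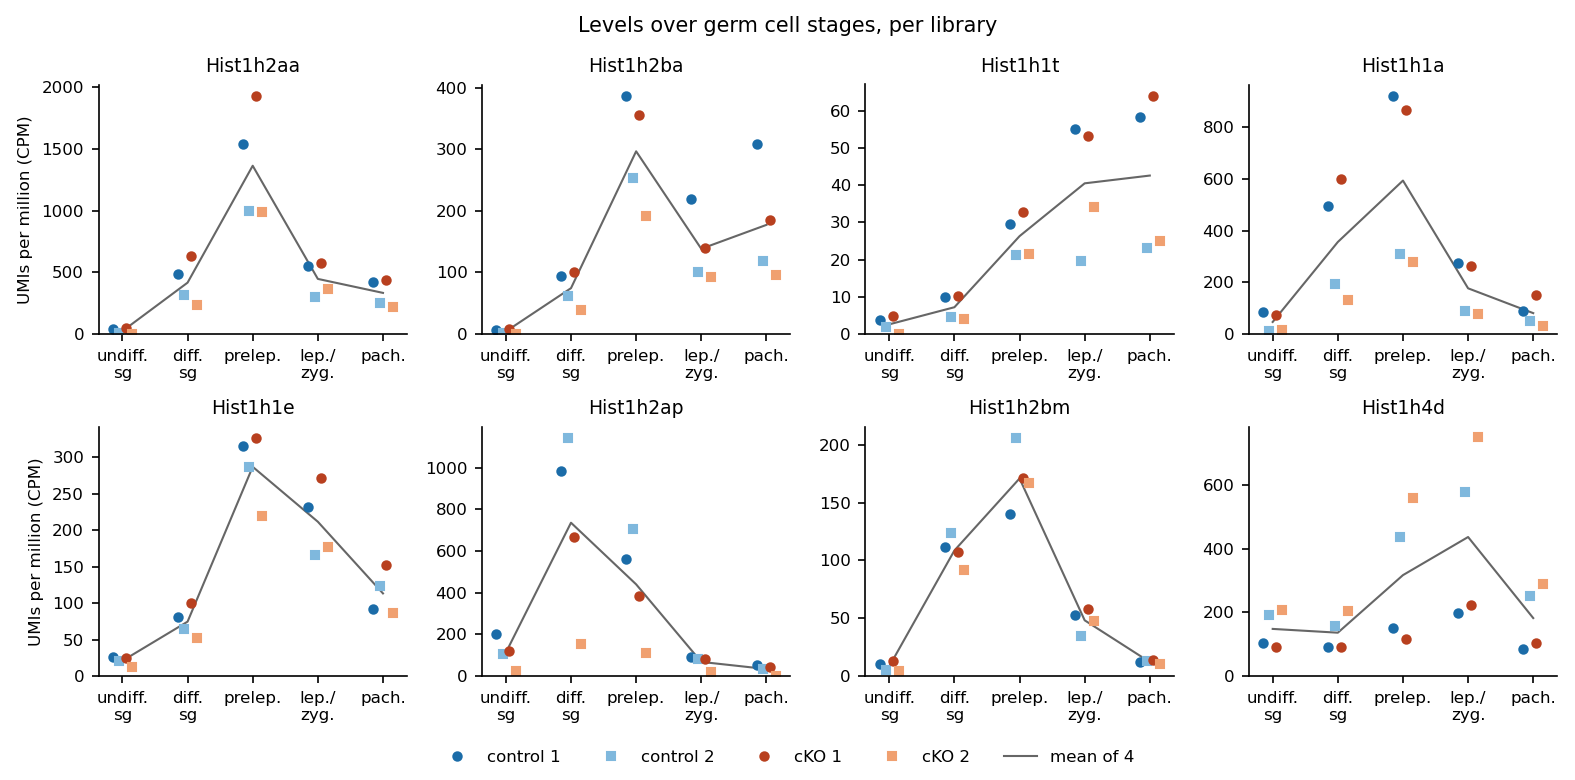
Level (CPM, linear axis from 0, scaled per gene) of 3 testis variants (*Hist1h2aa*, *Hist1h2ba*, *Hist1h1t*) and 5 replication types in 5 germ cell stages, with 1 point per library and a grey line through the mean of 4. *Hist1h2aa* peaks in preleptotene-like cells at 989 to 1925 CPM, *Hist1h1t* is highest on average in pachytene-like cells, *Hist1h2ap* in differentiating cells and *Hist1h4d* in leptotene/zygotene-like cells, and the squares (replicate 2) lie above the circles (replicate 1) for *Hist1h4d*.

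The other linker histones split between an early and a late course. *Hist1h1a* was at 497, 194, 601 and 132 CPM in differentiating and 920, 309, 869 and 278 CPM in preleptotene-like cells, then fell with log2 fold changes of -1.68 and -1.19 at the next steps. *Hist1h1e* rose from 81.5, 64.6, 100 and 52.1 CPM to 315, 287, 327 and 220 CPM at the same step (log2 fold change 1.97 ± 0.069, adjusted p = 1.48e-19). *Hist1h1c* reached 172, 140, 194 and 134 CPM in preleptotene-like cells and likewise fell after them. *Hist1h1b* did the reverse: it fell on differentiation (log2 fold change -1.80), from 24.6, 1.84, 29.1 and 3.51 CPM to 7.80, 1.17, 7.71 and 1.89 CPM. It then rose from preleptotene-like to leptotene/zygotene-like cells, from 7.25, 1.90, 6.25 and 1.47 CPM to 32.6, 10.4, 19.8 and 6.28 CPM (log2 fold change 2.07 ± 0.28, adjusted p = 3.42e-08). In control 2 and cKO 2, 1 UMI is 1.84 and 0.876 CPM in undifferentiated cells, and 0.316 and 0.491 CPM in preleptotene-like cells. The replicate 2 values of *Hist1h1b* before this late step therefore rest on few UMIs. *Hist1h1d* shared that late step, with a log2 fold change of 1.02 ± 0.24 (adjusted p = 0.000289), which was 0.67 without integration and 0.39 at a resolution of 0.8, not called in either. The fit without integration held the replicate 1 libraries alone.

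Among the core replication types, *Hist1h2ap* and *Hist1h2bm* were high in differentiating and preleptotene-like cells and low from leptotene on. *Hist1h2ap*, an H2A gene, stood at 986, 1141, 666 and 152 CPM in differentiating cells of control 1, control 2, cKO 1 and cKO 2, with cKO 2 far below the rest. It fell already in preleptotene-like cells, to 563, 706, 382 and 110 CPM (log2 fold change -0.70 ± 0.052, adjusted p = 2.56e-12; -0.13 and not called at a resolution of 0.8), and to 90.2, 80.9, 79.3 and 20.6 CPM in leptotene/zygotene-like cells (log2 fold change -2.60). *Hist1h2bm*, an H2B gene, rose from 111, 123, 108 and 91.9 CPM to 140, 206, 171 and 167 CPM at preleptotene and lost most of its RNA by pachytene, at 11.99, 12.6, 13.5 and 10.3 CPM. *Hist1h4a* and *Hist1h3c* fell at preleptotene with log2 fold changes of -1.68 and -1.37.

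The H4 genes *Hist1h4d* and *Hist1h4c* and the H3 gene *Hist1h3c* were higher in leptotene/zygotene-like than in preleptotene-like cells. *Hist1h4d* went from 152, 438, 118 and 561 CPM in preleptotene-like to 197, 578, 223 and 751 CPM in leptotene/zygotene-like cells, with a log2 fold change of 0.58 ± 0.071 (adjusted p = 5.74e-09). *Hist1h4c* went from 83.9, 133, 96.5 and 131 CPM to 105.6, 156.7, 104.8 and 164 CPM (0.32 ± 0.082, adjusted p = 0.00092). Both were higher in 4 of 4 libraries. Their direction depended on where the clusters were drawn: at a clustering resolution of 0.8 in place of 0.4 the log2 fold changes were -0.25 and -0.42, and without integration that of *Hist1h4c* was 0.11 and not called. Without integration this step was tested in the replicate 1 libraries alone. *Hist1h3c* gained 0.58 at this step. In undifferentiated spermatogonia-like cells, *Hist1h2ae* and *Hist1h3e* were at their highest, and they fell on differentiation with log2 fold changes of -1.44 and -1.52. *Hist3h2ba*, an H2B gene on chromosome 11, was down to 3.55, 0.967, 2.13 and 0 CPM in pachytene-like cells.

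To relate these levels to DNA replication, spermatogonia-like cells were ranked within each library and cluster by the share of their UMIs from an S-phase gene list that holds no histone, and the upper tertile was compared with the lower. All 28 members called of 31 tested were higher in the upper tertile. Of all genes, 11% were called, 5.45% higher and 5.55% lower, and the median log2 fold change was 0.91 over the members and 0.00 over all genes. *Hist1h2ap* stood at 1050, 1417, 776 and 182 CPM in the upper and 456, 570, 297 and 80.8 CPM in the lower tertile, a log2 fold change of 1.21 ± 0.042 (adjusted p = 7.54e-22). *Hist1h1a* differed by 0.95 ± 0.054 (adjusted p = 2.83e-15).

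Of the testis variants, *Hist1h2aa* and *Hist1h2ba* were called and *Hist1h1t* was not. *Hist1h2aa* was at 436, 372, 684 and 262 CPM in the upper tertile against 240, 183, 269 and 147 CPM in the lower (log2 fold change 0.97 ± 0.058, adjusted p = 7.63e-15). *Hist1h2ba* differed by 0.58 ± 0.11 (adjusted p = 0.00019), but by -0.14 and not called among cells with under 10% mitochondrial UMIs, and by 0.35 and not called without cKO replicate 1. *Hist1h1t* had a log2 fold change of 0.41 ± 0.26 and did not pass, but was called with no upper limit on genes per cell (0.99). The largest log2 fold change between these tertiles was that of *Hist1h2ae* (1.93 ± 0.14), an H2A gene that was highest in undifferentiated cells.

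In interstitial-like cells, the 13 members called of 27 tested moved in both directions, 10 higher and 3 lower in the upper S-phase tertile. Of all genes 4.26% were called (2.11% higher, 2.15% lower), and the medians were 0.43 over the members and -0.01 over all genes. *Hist1h1b* stood at 115, 14.7, 62.4 and 19.5 CPM against 17.2, 3.74, 7.14 and 5.48 CPM (log2 fold change 2.37 ± 0.15, adjusted p = 4.98e-16). *Hist1h2ap* differed by 1.70 ± 0.11 with the same adjusted p, and *Hist1h1a* by 0.99. Of the 3 testis variants 1, *Hist1h2aa*, was also called higher. That call was lost with DESeq2, without control replicate 1 (0.568), without cKO replicate 1 (0.475) and without cKO replicate 2 (0.437). Germ cell markers summed to 302, 76.9, 334 and 170 CPM in interstitial-like cells, and their part in this split was not tested. Lower were *Hist1h1c*, at 36.2, 37.8, 48.4 and 27.1 CPM against 54.0, 44.9, 69.9 and 50.2 CPM (-0.59 ± 0.090, adjusted p = 1.08e-05), *Hist1h2bc* (-0.57) and *Hist1h4i* (-0.91). With no upper limit on genes per cell *Hist1h1c* (-0.17) and *Hist1h4i* (-0.02) were not called. *Hist1h4i* also lost its call without any single library, and *Hist1h2bc* without control replicate 1 (-0.39) and without cKO replicate 2 (-0.47). The count of 13 fell to 7 without control replicate 1 and to 7 without cKO replicate 2.

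The 2 cell classes were compared directly in a test of the difference between their S-phase changes, added after the values above were seen. It called 4 of 37 members, where 3.07% of all genes were called (0.766% higher in spermatogonia-like cells, 2.31% lower). *Hist1h1c*, *Hist1h4i* and *Hist1h2ae* changed more in the direction of higher S-phase score in spermatogonia-like cells, and *Hist1h2ap* less. *Hist1h1c* was the clearest, at 98.8, 81.7, 125 and 71.0 CPM in the upper tertile of spermatogonia-like cells against 55.8, 46.1, 59.6 and 39.3 CPM in the lower, the opposite of its order in interstitial-like cells.

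**Figure D3:**
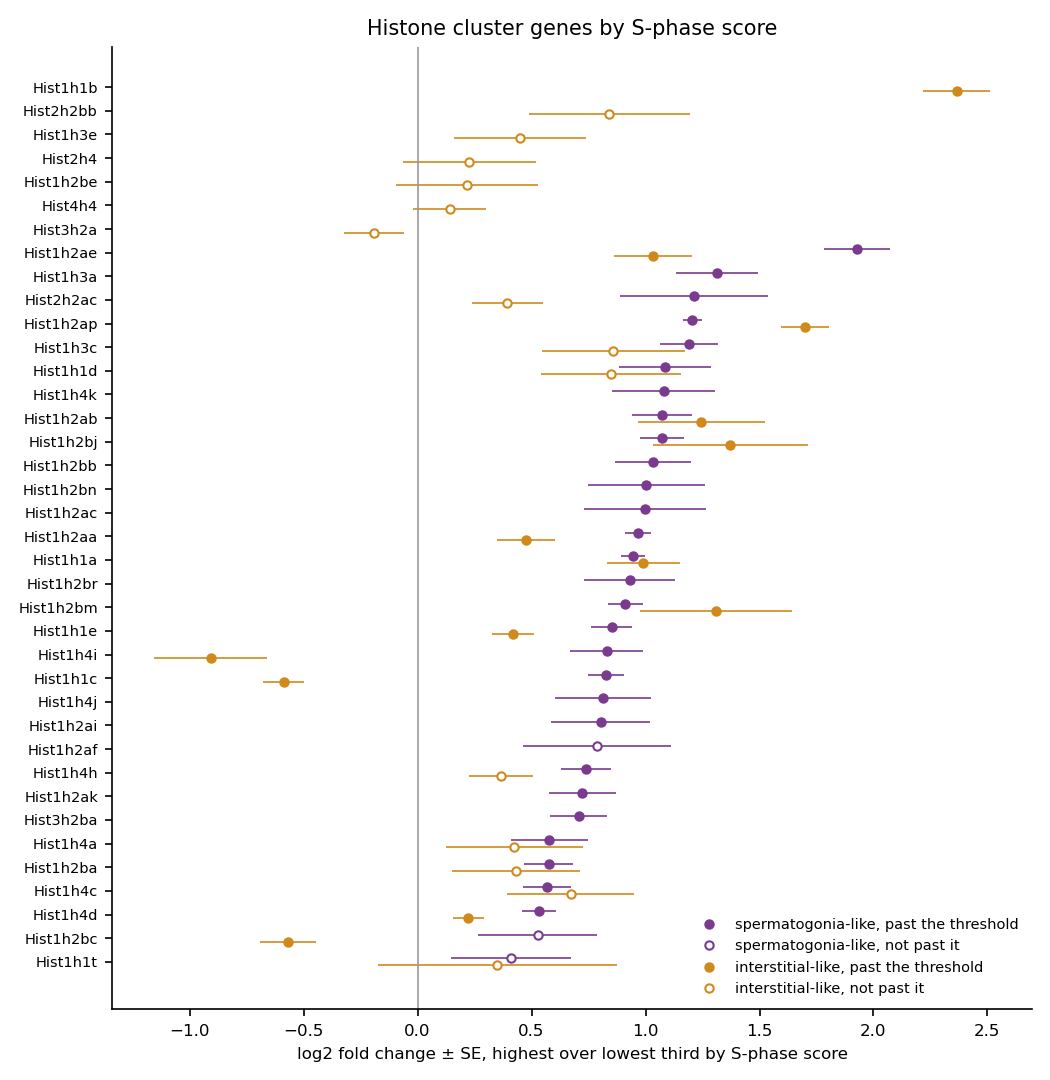
Log2 fold change ± SE of each tested member between the upper and the lower tertile of cells by S-phase score, in spermatogonia-like (purple, 31 members) and interstitial-like cells (orange, 27 members), with filled points past the threshold of 0.05 on the adjusted p. All purple points lie right of 0, while *Hist1h1c*, *Hist1h2bc* and *Hist1h4i* lie left of 0 among the filled orange points.

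Set against Sertoli-like cells, the somatic cells of the tubule, 34 of 46 members were higher in germ-like cells and 8 lower. Of all genes 80.7% were called (42.1% higher, 38.6% lower), with medians of 2.43 over the members and 0.08 over all genes. All 9 H4 genes tested were higher, among them *Hist1h4j* (log2 fold change 3.58 ± 0.27, adjusted p = 1.24e-05), *Hist1h4i* (3.11 ± 0.24) and *Hist1h4h* (1.41 ± 0.11). Of the 8 members lower in germ-like cells, *Hist1h2bc* and *Hist3h2a* had the largest differences. *Hist1h2bc* was at 80.4, 72.4, 165 and 37.0 CPM in Sertoli-like against 7.84, 3.33, 13.8 and 2.32 CPM in germ-like cells (log2 fold change -4.14 ± 0.21, adjusted p = 3.44e-06). *Hist3h2a* was at 42.4, 51.1, 27.5 and 52.4 CPM against 3.21, 1.76, 3.23 and 2.32 CPM (-4.33 ± 0.30), and *Hist2h3c1* had a log2 fold change of -3.07.

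Of the 59 members considered over 6 classes of cells, 33 had their highest mean level in germ-like, 15 in macrophage-like, 4 in Sertoli-like, 3 in interstitial-like, 3 in RT-like and 1 in Leydig-like cells. The member highest in Leydig-like cells, which make testosterone, was *Hist1h2bc*, at 274, 173, 358 and 94.7 CPM, from 13, 86, 44 and 107 cells. *Hist1h1b* led in macrophage-like cells at 135, 59.7, 417 and 119 CPM, from 31, 105, 61 and 100 cells. *Hist3h2ba* led in RT-like cells, at 90.8, 113, 66.2 and 209 CPM, from 33 to 86 cells per library. Endothelial-like cells, 72 in all, were not among the 6 classes. These orders are descriptions, and neighbouring classes overlap for many members.

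RNA of the testis variants was also counted in Sertoli-like cells, mainly in the replicate 1 libraries. *Hist1h2aa* stood there at 48.0, 5.53, 95.6 and 4.03 CPM, which is 10.3%, 1.15%, 11.8% and 1.07% of its level in germ-like cells of the same library. *Hist1h2ba* came to 9.26%, 0.955%, 9.39% and 0.899%, and *Hist1h1t* to 22.4%, 3.93%, 36.3% and 7.44%. Of the 7 germ cell markers, 6 were likewise higher in both replicate 1 libraries than in both replicate 2 libraries: *Ddx4*, a germ cell RNA helicase, was at 8.24%, 3.61%, 12.1% and 4.77% of its germ-like level, and *Tex101* at 13.3%, 1.42%, 12.6% and 2.90%. The exception was *Dppa3*, at 20.1%, 31.8%, 22.4% and 0%, from 18, 2, 9 and 0 UMIs in Sertoli-like and 160, 12, 78 and 19 UMIs in germ-like cells. *Hist1h1t* lay above each of the other 6 markers in every library, but its Sertoli-like level rests on 43, 3, 66 and 8 cells with a UMI. The list of 7 germ cell markers summed to 370, 121, 483 and 177 CPM in Sertoli-like cells, and its part in the Sertoli-like levels of the members was not tested. *Hist1h1e* was at 77.4%, 31.6%, 46.9% and 36.6%.

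**Figure D4:**
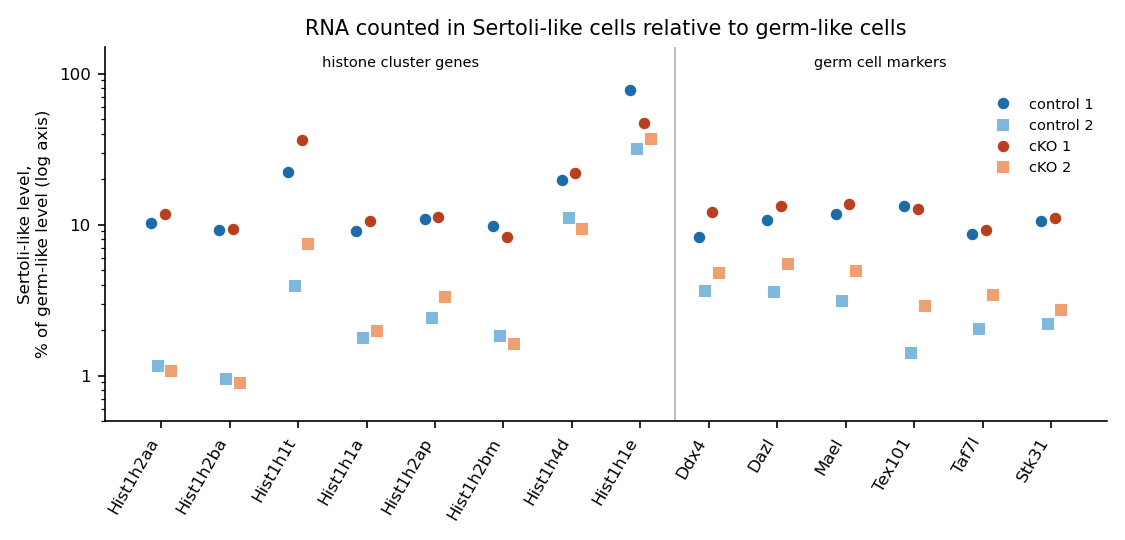
Level in Sertoli-like cells as a percentage of the level in germ-like cells of the same library (log axis), for 8 histone cluster genes and 6 of the 7 germ cell markers, with 1 point per library and without *Dppa3*, which had 0 to 18 UMIs in Sertoli-like cells of a library. For *Hist1h2aa* the replicate 1 libraries (circles) lie at 10.3% and 11.8% and the replicate 2 libraries (squares) at 1.15% and 1.07%, with the 6 markers plotted between 1.42% and 13.6%.

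Shares of cells with a UMI gave the same picture after every cell was thinned to 2000 UMIs. *Hist1h2aa* was detected in 72.8%, 61.4%, 66.4% and 60.3% of preleptotene-like cells, with 95% exact (Clopper-Pearson) intervals from 66.9 to 78.2% in control 1 and from 54.5 to 66.0% in cKO 2. In Sertoli-like cells, taken as the background, the share was 10.1%, 1.498%, 20.1% and 0.723%. *Hist1h2ba* was seen in 46.1%, 29.6%, 40.5% and 24.8% of preleptotene-like cells against 2.81%, 0.346%, 3.68% and 0% of Sertoli-like cells, where 0 of 1244 cells allows a share of cells with a UMI at this depth of up to 0.241% by the limit of 3 counts (0.296% by the exact interval), which does not limit the share of cells that express the gene. *Hist1h1t* was seen in 5.51%, 4.23%, 6.71% and 4.83% of preleptotene-like cells, against 0.811%, 0.230%, 2.10% and 0.322%. Thinning left out 2, 1, 13 and 0 preleptotene-like and 107, 92, 220 and 96 Sertoli-like cells. Median depth before thinning was 5774, 8196, 6562 and 6544 UMIs in preleptotene-like and 5980, 4171, 3679 and 6029 UMIs in Sertoli-like cells. The intervals cover counting error only.

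The question of the study was what loss of *Sox17* changes. No histone cluster gene was called between *Sox17*-cKO and control libraries in germ-like (50 tested), Sertoli-like (36) or interstitial-like cells (43) by edgeR's quasi-likelihood test, where 0% of all genes were called in each class. At an unadjusted p under 0.05 there were 2, 0 and 1 members, among 18, 97 and 57 of the 13912, 12156 and 13699 genes tested. Those counts lie far below the share of 0.05 that such a limit passes when nothing differs. The edgeR fits were therefore strict, and a lack of calls does not show a lack of change. DESeq2 also called 0 members in each class. *Hist1h2ap* had the smallest p in germ-like cells, at 608 and 728 CPM in controls and 395 and 100 CPM in *Sox17*-cKO, a log2 fold change of -1.49 ± 0.54 (adjusted p = 1). The control libraries were both above the cKO libraries, but as a ratio cKO 2 lay further below cKO 1 than cKO 1 lay below either control. It was called without cKO replicate 1 (log2 fold change -2.73, adjusted p = 0.000147), a fit in which cKO is 1 library assumed to vary like the controls. It was also called with the replicate number as a block (-1.76, adjusted p = 0.00267) and without the filter on low counts (-1.49, adjusted p = 0.0138). *Hist1h4b* in germ-like cells (log2 fold change -1.73) and *Hist1h4h* in interstitial-like cells (-1.09) were the other members under that unadjusted limit. The p-values measure the spread between libraries, each of which pools 3 pups. RT-like cells, in which the study deleted *Sox17*, were not tested for genotype. There the members summed to 643 and 582 CPM in control 1 and control 2 and to 1105 and 899 CPM in cKO 1 and cKO 2. These sums rest on 36, 73, 33 and 86 cells with 170, 336, 267 and 598 member UMIs. The S-phase gene list summed in RT-like cells to 741, 637, 1196 and 848 CPM. Germ cell markers came to 246, 51.9, 343 and 129 CPM there. In macrophage-like cells the members summed to 888, 904, 1898 and 998 CPM, likewise highest in cKO 1. The part of any of these in the RT-like sums was not tested.

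Among the testis variants the genotype differences were smaller than their standard errors. In germ-like cells the log2 fold change was 0.28 ± 0.36 for *Hist1h2aa*, -0.16 ± 0.33 for *Hist1h2ba* and 0.21 ± 0.38 for *Hist1h1t*. Changes well above these errors could also go uncalled with 2 libraries a group, as that of *Hist1h2ap* did at -1.49. The libraries also differ in their mix of germ cell stages, given below, and its part in these values was not tested.

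Libraries were also compared by replicate number, with genotype in the model, whereas the genotype fits above hold no term for the replicate. With such a term genotype called 1 member, *Hist1h2ap*, in germ-like cells, where 0.0144% of all genes were called (2 genes, both lower), and 0 members in Sertoli-like and interstitial-like cells, where 0% were called. Germ-like sums mix stages in differing proportions. Of 2231, 1231, 1785 and 1123 germ-like cells in control 1, control 2, cKO 1 and cKO 2, 386, 45, 178 and 92 were undifferentiated spermatogonia-like. Preleptotene-like were 256, 379, 460 and 290. Median mitochondrial shares of all retained cells were 8.83%, 5.77%, 7.16% and 5.45%. Their part in the changes below was not tested. In germ-like cells 15 of 50 members were called between replicate 2 and replicate 1 libraries, 5 higher and 10 lower, where 13.4% of all genes were called (6.38% higher, 7% lower), with medians of -0.37 and -0.02. *Hist1h4d* was higher in replicate 2, at 302 and 347 CPM against 104.8 and 113.1 CPM in replicate 1 (log2 fold change 1.63 ± 0.19, adjusted p = 1.09e-07), and *Hist1h4c* and *Hist3h2ba* followed with 0.76 each. *Hist1h1a* was lower, at 190 and 134 CPM against 377 and 503 CPM (-1.39 ± 0.21, adjusted p = 1.05e-05), as were *Hist1h2ae* (-1.77) and *Hist1h1b* (-2.19). *Hist1h4c* and *Hist3h2ba* lost their calls with DESeq2, under 10% mitochondrial UMIs and within differentiating spermatogonia-like cells alone (0.23 and 0.45). In fits added after the data were seen, 18 of 45 members were called within differentiating spermatogonia-like cells alone, 2 higher and 16 lower, where 14.1% of genes were called (7.73% higher, 6.37% lower). Within preleptotene-like cells alone 15 of 36 were called, 4 higher and 11 lower, where 23.3% of genes were called (11.9% higher, 11.4% lower). *Hist1h2aa* and *Hist1h2ba*, at -0.47 and -0.50 and not called over all germ-like cells, were called in both, at -0.97 (adjusted p = 0.005) and -0.92 (adjusted p = 0.00637) in differentiating cells and at -0.76 (adjusted p = 2.34e-05) and -0.72 (adjusted p = 1.49e-05) in preleptotene-like cells. *Hist1h1t* was called in differentiating cells alone (-1.16, adjusted p = 0.0278), and *Hist1h2ae* was not called in preleptotene-like cells alone (-0.71).

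In Sertoli-like cells 13 of 36 members were called and all were lower in replicate 2, where 6.19% of genes were called (3.26% higher, 2.93% lower), with medians of -0.85 and 0.00. The largest were those that are highest in germ cells: *Hist1h1a* (log2 fold change -3.79 ± 0.31, adjusted p = 0.00033), *Hist1h2aa* (-3.81 ± 0.34, adjusted p = 0.000483) and *Hist1h2ba* (-3.82 ± 0.42, adjusted p = 0.00162). In interstitial-like cells 2 of 43 were higher and 12 lower, where 10.1% of genes were called (5.33% higher, 4.82% lower), with medians of -0.83 and 0.01. *Hist1h2aa* (-4.48), *Hist1h2ba* (-4.50) and *Hist1h1a* (-3.45) were among the lower, and *Hist4h4* (1.23) and *Hist1h4d* (1.35) were the members called higher, though neither with DESeq2. Germ cell markers summed in these cells to 302 and 334 CPM in control 1 and cKO 1 against 76.9 and 170 CPM in control 2 and cKO 2. Their part in these changes was not tested.

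A test of the difference between these changes in germ-like and Sertoli-like cells, added after the values were seen, called 12 of 52 members, and all 12 had the higher value in germ-like cells, where 5.14% of all genes were called (2.68% higher, 2.45% lower). The replicate number and the version of the counting software cannot be told apart.

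**Figure D5:**
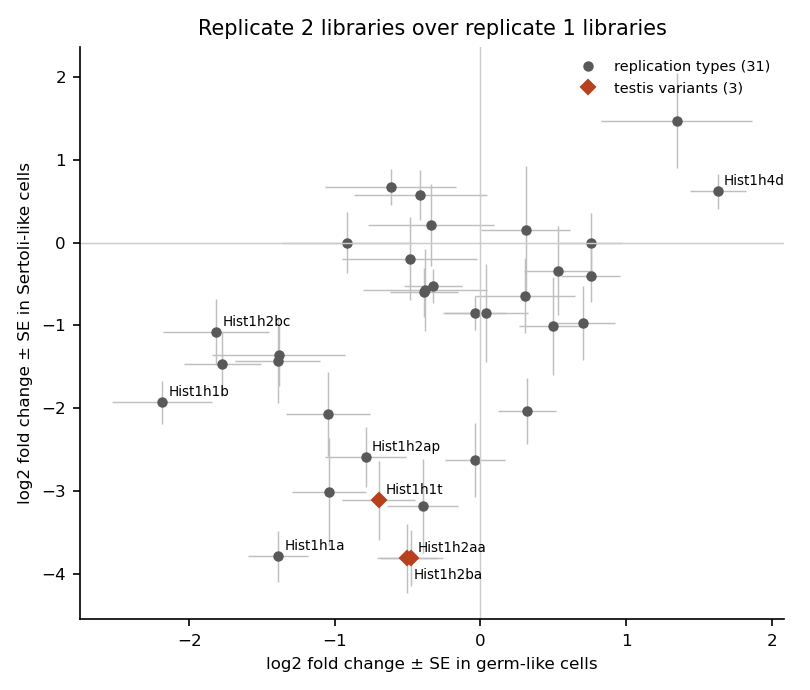
Log2 fold change ± SE of replicate 2 over replicate 1 libraries in germ-like (x axis) and Sertoli-like cells (y axis), for the 34 members tested in both, with testis variants as diamonds. *Hist1h2aa* and *Hist1h2ba* lie near -0.5 in germ-like cells (not called over all stages together) and near -3.8 in Sertoli-like cells, and *Hist1h4d* lies at 1.63 on the x axis.

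Genes that process histone mRNA or supply histones to chromatin moved in both directions over the stages. Of a list of 25, 12 rose and 8 fell of 24 tested as spermatogonia differentiated, where 33% of all genes were higher and 32.8% lower, and in the upper S-phase tertile 10 of 24 were higher and 0 lower in spermatogonia-like cells, where 5.45% and 5.55% of all genes were, with a median log2 fold change of 0.13. Replication-independent histones, such as the H3.3 and H2A.Z genes, which are polyadenylated as a rule, gave 3 higher and 1 lower of 12 tested in the same S-phase contrast, with a median of 0.03. At the step into pachytene-like cells 6 of 11 of them rose and 3 fell, against 32.3% and 30.9% of all genes, where 1 of 20 members rose and 16 fell. The list of 33 S-phase genes gave 29 higher and 1 lower as spermatogonia differentiated. At the step into preleptotene-like cells 9 of these were higher and 18 lower, with a median log2 fold change of -0.27, and 17 of 37 members rose and 7 fell, where 33% of all genes were higher and 33.9% lower. In germ-like against Sertoli-like cells 32 of 33 were higher, where 42.1% of all genes were.

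Over the 20 sums of 4 libraries and 5 germ cell stages, the genes most like *Hist1h2ba* among 13444 were *Ipp* (Pearson r = 0.974), *C2cd5* (0.971), *Gpcpd1* (0.97), *Itch* (0.97) and *Hist1h2aa* (0.969). The sums of one library share its depth, so these values rank genes and carry no test.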

How the data were processed

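Single-cell suspensions of 2 control and 2 *Sox17*-cKO samples were profiled with a 10x Genomics 3′ kit. The deposited values are raw UMI counts per gene and barcode, which the authors made with Cell Ranger 6.0.2 (replicate 1 libraries) or 6.1.2 (replicate 2 libraries, both versions per the submitters' processing notes) on mm10. No normalization had been applied. Combined matrices of the same libraries were not used.

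Barcodes with 1000 to 4500 detected genes were kept. The study's limit of 1% mitochondrial reads was not applied, since 212 of the 22567 cells kept would have passed it. Libraries were integrated in Seurat 5.3.0 (2000 variable genes without any histone or histone-processing gene, 20 principal components, resolution 0.4) and clusters were named from marker lists. Clusters with a median mitochondrial share over 20% stayed unnamed, a limit set once the clusters had been viewed, as was the pachytene rule (score over 0.8). Germ clusters that scored over 1.5 for another cell type also stayed unnamed. Unnamed were 2267 cells, and 560 further germ cells without a stage. The largest unnamed clusters held 415, 48, 797 and 144 cells, and 277, 27, 431 and 111 cells, of control 1, control 2, cKO 1 and cKO 2. No doublet caller was run. UMIs were summed per library and class, with at least 10 cells per sum, and tested with edgeR 4.0.16 (TMM, filterByExpr, quasi-likelihood test, two-sided, Benjamini-Hochberg over all genes, 0.05), with the library as a block for classes, stages and S-phase tertiles. DESeq2 1.42.0 was an alternative. Tests were checked on simulated counts. Named genes were the testis variants, the linker histones, the 12 other members with the most UMIs, up to 3 members a direction with the smallest adjusted p in each comparison, and the 5 genes most like *Hist1h2ba*. *Hist1h4b*, *Hist1h4a*, *Hist1h3e* and others outside the rule were named after their values were seen. The members and all lists were chosen with earlier results of these data known.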

Additional observations from a re-analysis of the deposited data

Results flagged for a closer look

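The change from replicate 1 to replicate 2 libraries differed between germ-like and Sertoli-like cells for 12 members, by an edgeR interaction test with Benjamini-Hochberg adjustment over all genes. The difference (germ-like less Sertoli-like, log2) was largest for *Hist1h2ba* (3.396 ± 0.33, adjusted p = 2.06e-05) and *Hist1h2aa* (3.395 ± 0.22, adjusted p = 1.37e-06). It was 2.863 for *Hist1h3c*, 2.634 for *Hist1h2bj*, 2.467 for *Hist1h2bm*, 2.459 for *Hist1h1a*, 2.362 for *Hist1h1t* and 2.102 for *Hist1h2ap*. It was 1.738 for *Hist1h2ab*, 1.281 for *Hist1h4c*, 1.113 for *Hist1h4d* and 0.911 for *Hist1h1e* (adjusted p = 0.0349, the highest of the 12).

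The S-phase change differed between spermatogonia-like and interstitial-like cells for 4 members by the same kind of test. *Hist1h4i* differed by 1.724 ± 0.29 (adjusted p = 5.67e-05), *Hist1h1c* by 1.409 ± 0.13 (adjusted p = 1.3e-12), *Hist1h2ae* by 0.886 ± 0.24 (adjusted p = 0.0202) and *Hist1h2ap* by -0.5 ± 0.12 (adjusted p = 0.00643).

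Barcodes outside the limits on detected genes also held histone UMIs. Under 1000 genes the members summed to 1571, 680, 1794 and 432 CPM in control 1, control 2, cKO 1 and cKO 2, and over 4500 genes to 1266, 1245, 1517 and 659 CPM. Germ cell markers in the same barcodes summed to 1848, 947, 2510 and 1406 CPM and to 2378, 2044, 2553 and 1764 CPM. Differences between the groups in these barcodes were not tested.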

How the results depend on the processing

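Of 146 alternatives over 16 comparisons, 127 left the count of called members within 1.5 times the reported one, or a share within its spread, and 19 did not. Of 1067 alternatives for values of single genes, 975 kept direction and call, 56 lost the call, 27 gained it and 9 reversed. With no upper limit on genes per cell, the calls came to 47 (S-phase tertiles, spermatogonia-like), 20 (S-phase tertiles, interstitial-like), 27 (replicate number, germ-like) and 29 (replicate number, Sertoli-like). With DESeq2 these 4 counts were 11, 0, 6 and 5, and 7 for replicate number in interstitial-like cells. Its filter gave an adjusted p to 11 members in the first and to 0 in the second, where 29 and 15 had an unadjusted p under 0.05. Under 10% mitochondrial UMIs, replicate number called 9 members in germ-like cells. Leaving out 1 library gave 7 to 10 calls for the interstitial-like tertiles and 0 to 1 for genotype in germ-like cells. Without the filter on low counts, genotype called 1 member in germ-like and 2 in interstitial-like cells. For the fits named so far in this paragraph the share of all genes called is not given. Their counts therefore show how calls depend on the settings and are no result about the members. The replicate block called 1 (*Hist1h2ap*), 0 and 0 members for genotype in germ-like, Sertoli-like and interstitial-like cells, where 0.0144%, 0% and 0% of all genes were called. Same-numbered libraries deviated together (r = 0.543, 0.521 and 0.567), and they carry the same Cell Ranger version, but no label gives them a shared litter or day and there are 2 pairs, so the numbers were not taken as pairing the samples. The adjusted p of *Hist1h2ap* for genotype ranged from 0.000147 to 1. Without thinning, the mean shares of preleptotene-like cells were 14.4%, 78.4% and 59.6% for *Hist1h1t*, *Hist1h2aa* and *Hist1h2ba*, against 5.32%, 65.3% and 35.3%.

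Reversed at resolution 0.8 were *Hist1h1b* (0.22) and *Hist1h1d* (0.057) for preleptotene-like over differentiating cells, and *Hist1h4c* (-0.42) and *Hist1h4d* (-0.25) for the next step. For pachytene-like over leptotene/zygotene-like cells, *Hist1h2ba* was -0.071 without integration, and *Hist1h1t* -0.026 without the filter and -0.034 to 0.142 when 1 library was left out (-0.034 without cKO replicate 1), while it was called at resolution 0.8 (0.59) and with no upper limit on genes (0.561). In the S-phase tertiles, *Hist1h2ba* was -0.14 under 10% mitochondrial UMIs in spermatogonia-like cells, and *Hist1h1t* -0.20 in interstitial-like cells split at the median score. The cause was not tested. Replicate number contrasts leave too few libraries to omit one. Without integration, preleptotene-like cells of the replicate 2 libraries numbered under 10 each, so fits of that stage without integration rest on the replicate 1 libraries alone.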
